A study of Mus musculus with 132 samples.

Results

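Imprinted genes that lie outside the Meg3 locus were followed in single cells of mouse preimplantation embryos. A list of 40 such genes was taken by symbol, and 38 of the 32245 genes of the count table carried one of these symbols. The other 2 symbols, Nespas and Phf17, were not analysed here, and Phf17 is an older symbol of Jade1, which was. Polyadenylated RNA of 132 cells was read by Smart-seq2, which covers whole transcripts and carries no molecular identifiers. Embryos from matings of C57BL/6 x DBA F1 females with F1 males of the same cross were collected at the 2-cell stage. The medium then received either a mimic of miR-381-3p or, at the same concentration, a scrambled control mimic. This concentration was 10 µM for embryos collected at the 8-cell stage and 5 µM for those collected at the 32-cell stage, so dose and stage cannot be told apart. The 4 groups were 30 cells of control and 24 cells of mimic-treated embryos at the 8-cell stage (embryonic day 2.5), and 39 cells of control and 39 cells of mimic-treated embryos at the 32-cell stage (embryonic day 3.5). Each group held cells of 3 to 5 embryos, but the labels do not tie cells to embryos. Every group was therefore treated as 1 sample, with no test between groups.

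At an imprinted gene, a mark laid down in the egg or the sperm lets 1 parental copy be read and keeps the other silent. Most such genes lie in domains that share a control region methylated in the egg or in the sperm, often beside a long non-coding RNA that silences its neighbours. A smaller set, called non-canonical, is held silent on the maternal copy by the histone mark H3K27me3 and is imprinted mainly in the early embryo and the extraembryonic lineages. The marks have to outlast the wave of demethylation that runs through preimplantation development. By this knowledge the 38 genes comprise 21 paternally expressed canonical genes, 3 non-canonical genes, 8 maternally expressed genes and 6 that are maternal or biased in some tissues only. The counts do not separate the parental copies, so all values are of both copies together.

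The mature miR-381-3p, the molecule that the mimic copies, lies on mouse chromosome 12 within the imprinted Meg3 locus itself (chr12:109726870-109726891, + strand, GRCm38.p6, RefSeq). It is shown with its seed, bases 2 to 8, in capitals. Of the 34 members with an annotated 3' UTR (GENCODE M21, same genome assembly as the counts), 6 held the 7-base complement of the seed, CTTGTAT, read on the transcript strand (17.6%, beside 11.5% of 20775 genes). Inpp5f alone held the 8-base form CTTGTATA (2.94% of members, beside 3.11% of all genes). The windows of the 3 members with a match and at least 20 CPM in some group (counts of a gene per 1000000 counts of the group) follow, with the match in capitals. A match of letters is a description and does not show binding.
mmu-miR-381-3p: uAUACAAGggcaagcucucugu
Inpp5f, chr7:128696294-128696301, + strand: tatgagaatttCTTGTATAgcatttaatag
Trappc9, chr15:72800913-72800919, - strand: acagagctcctCTTGTATgctggtcctcc
Gab1, chr8:80765180-80765186, - strand: tttaagtgattCTTGTATgtagcaagcac
The other members with a match were Zim1, Nap1l5 and Plagl1.

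A cell had between 544866 and 3461022 counts in total (median 1260660). Levels are given as pooled CPM, the counts of a gene over all cells of a group per 1000000 counts of that group, with mitochondrial genes left out. Brackets hold exact Poisson 95% intervals. Since several reads can stem from a single molecule, these intervals cover counting error only. Where no read was counted, the limit set by 3 counts lay between 0.0527 and 0.0971 CPM in the 4 groups. All 39 cells of 32-cell control embryos had more Y-linked RNA than Xist, and all 39 cells of 32-cell mimic embryos had more Xist than Y-linked RNA. Embryo sex and treatment can thus not be told apart at the 32-cell stage. At the 8-cell stage, control held 23 cells with Xist above Y-linked RNA and 7 with the reverse, and mimic held 14 and 8, with 2 cells that had neither. Those 2 and another mimic cell, with 1 Y-linked read, stood apart at 3243 to 4881 genes, while each other cell of the 132 had over 5000. Their origin was not tested, and the counts of members are given below with and without these 3 cells. The numbers in the cell titles form runs that each hold 1 treatment within a stage, and values by run are given where a result rests on them. Of 8 cumulus and granulosa cell markers, 1 or 2 had any count in a group, with a summed pooled level of 0.0272 to 0.657 CPM. The summed level of 8 oocyte transcripts was 98.0 and 60.7 CPM in 8-cell control and mimic cells, and 0.404 and 6.09 CPM at the 32-cell stage.

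Of the 38 genes, 20 reached 20 CPM in at least 1 group (52.6%, beside 25.1% of all 32232 genes), and 11 reached it in all 4. Another 11 stayed under 3 CPM in every group, and Zim1, Magel2 and Peg10 had no count in any cell. In single cells most of these genes were patchy. Only Snrpn and Igf2r had a count in each of the 132 cells, while 9 genes had one in 3 cells or fewer. The plot of pooled levels shows this wide range.

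**Figure D1:**
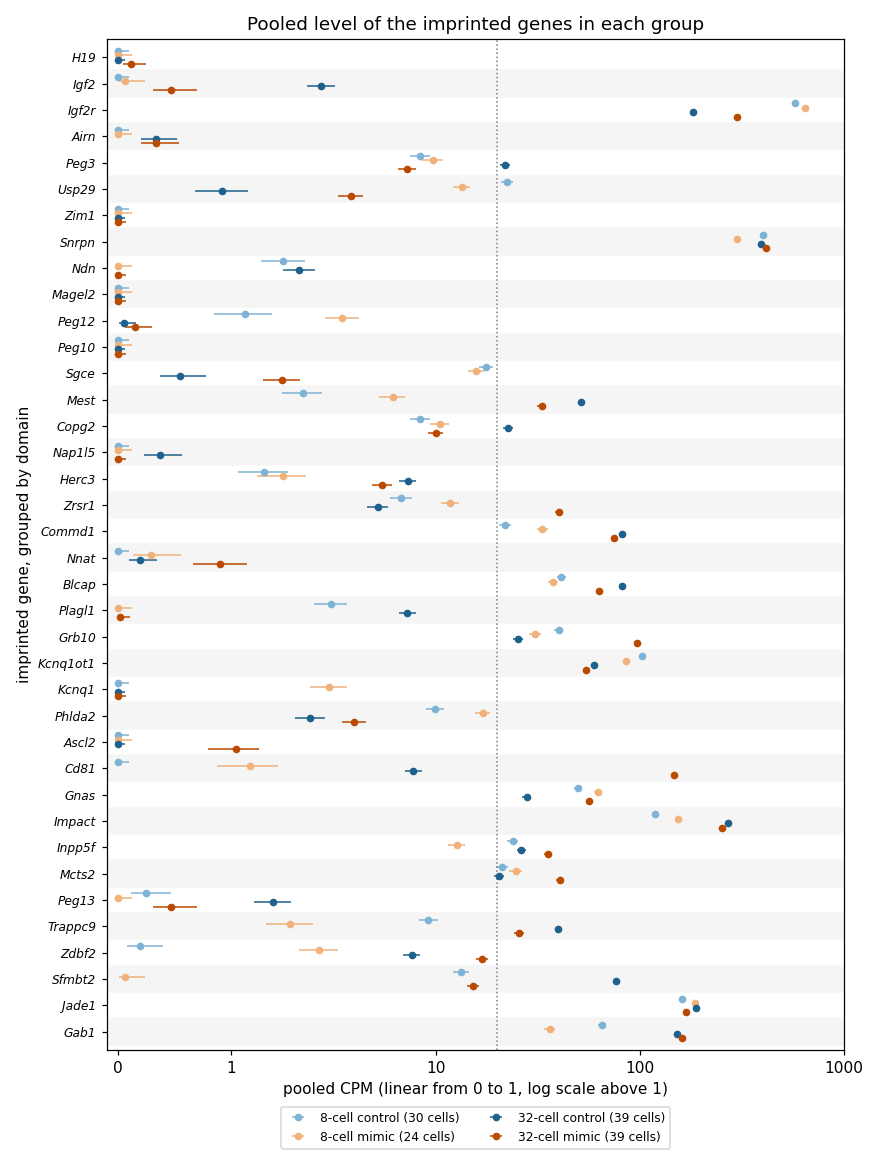
Pooled CPM of the 38 imprinted genes (horizontal axis, linear from 0 to 1 and on a log scale above 1) in the 4 groups, with exact Poisson 95% intervals as bars; the dotted line marks 20 CPM. Snrpn and Igf2r lie at 182 to 644 CPM in every group, and Zim1, Magel2 and Peg10 at 0.

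Genes of 1 domain stood at very different levels. In the Snrpn domain, Snrpn itself encodes a spliceosomal protein and was present at 402 CPM [396, 409] in 8-cell control, 299 [292, 305] in 8-cell mimic, 392 [386, 397] in 32-cell control and 416 [411, 422] in 32-cell mimic cells. The lowest, median and highest cell stood at 54.9, 376 and 912 CPM in 8-cell control and at 117.1, 299 and 648 in 8-cell mimic. In 32-cell control they stood at 116.2, 378 and 817, and in 32-cell mimic at 79.8, 373 and 909. The 4 groups overlapped widely. Per kilobase of exon, Snrpn had the highest level of the 38 genes in every group, at 138 to 193 CPM per kb. Its paternally expressed neighbours Ndn, Magel2 and Peg12 reached 2.14, 0 and 3.49 CPM at most, each in no more than 2 cells of a group. Snrpn shares 27.3% of its exon bases with an overlapping gene model of the same strand, so its reads could in part be split with it.

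Igf2r, the receptor that clears insulin-like growth factor 2, is read from the maternal copy once Airn is transcribed from the paternal one. Its pooled level was 578 CPM [571, 586] in 8-cell control, 644 [635, 653] in 8-cell mimic, 182 [179, 186] in 32-cell control and 300 [295, 304] in 32-cell mimic cells. In 8-cell control cells the lowest, median and highest values were 111.2, 547 and 953 CPM, and in 8-cell mimic cells 21.3, 645 and 1142. In 32-cell control cells they were 14.7, 156.1 and 445, and in 32-cell mimic cells 40.3, 265 and 589.7. No 32-cell cell of either treatment lay above the 8-cell median of its own treatment. Airn had no count at the 8-cell stage, and 0.334 and 0.338 CPM in 32-cell control and mimic cells, from 3 cells and 1 cell. The ligand Igf2 was at most 2.76 CPM, and H19, the non-coding RNA of the same domain, had 6 counts in 1 cell of the 132.

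In the Kcnq1 domain the long non-coding RNA Kcnq1ot1, which silences its neighbours in cis, had a count in 98 of the 132 cells. Its pooled level was 102.8 CPM [99.5, 106.1] and 85.9 [82.7, 89.2] in 8-cell control and mimic cells, and 59.9 [57.9, 62.0] and 54.8 [52.8, 56.8] at the 32-cell stage. Its lowest cell was at 0 in every group, its medians were 45.1, 22.2, 19.9 and 24.1 CPM, and its highest cells stood at 517, 403, 389.8 and 321. Kcnq1, the potassium channel gene that it overlaps on the other strand, was counted in 1 cell in all, at 64.8 CPM. Phlda2, a growth-restraining gene of the placenta, was at 9.94 and 17.02 CPM in 8-cell and at 2.43 and 3.98 CPM in 32-cell control and mimic cells. Ascl2, a transcription factor of trophoblast, had counts in 1 cell of 32-cell mimic embryos. Kcnq1ot1 is long, with 93092 exon bases. Per kilobase of exon it stood at 1.10, 0.923, 0.644 and 0.588 CPM in 8-cell control, 8-cell mimic, 32-cell control and 32-cell mimic cells. On this scale Phlda2 stood above it in every group, at 8.86, 15.2, 2.16 and 3.55 CPM per kb.

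Some genes that lie within or beside another member stood at lower levels than that member. Nnat, which lies within Blcap, was at most 0.902 CPM, whereas Blcap was at 41.3 CPM [39.2, 43.4] and 37.7 [35.6, 40.0] in 8-cell control and mimic cells, and at 81.7 [79.4, 84.1] and 63.3 [61.1, 65.4] at the 32-cell stage. The median cell of Blcap stood at 23.7, 5.28, 68.2 and 65.4 CPM and the highest at 153.8, 159.9, 256 and 324, with a lowest value of 0 in every group. Nap1l5 was counted in 1 cell, and its host Herc3 at 1.44 to 7.31 CPM. Peg13 was at most 1.60 CPM and was counted in 1 cell of each of 3 groups, while its host Trappc9 reached 39.9 CPM. Peg10 had no count, and its neighbour Sgce, a sarcoglycan gene, was at 17.6 and 15.8 CPM in 8-cell control and mimic cells and at 0.545 and 1.77 CPM at the 32-cell stage.

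Between the 8-cell and the 32-cell stage of control embryos, Mest, Sfmbt2, Trappc9, Commd1, Copg2, Peg3, Gab1 and Impact were higher and Usp29 and Igf2r were lower. Of the 18 members at 20 CPM or more in either stage of control embryos, 8 were at least 2-fold higher and 2 at least 2-fold lower at the 32-cell stage. The same held for 30% (higher) and 20.1% (lower) of all 7469 genes at this level. By list, 3 of 8 paternally expressed canonical genes were higher and 1 was lower, 2 of 3 non-canonical genes and 3 of 5 genes biased in some tissues were higher, and 1 of 2 maternally expressed genes was lower. This split was 9 and 5 with the mean of log2(CPM + 1) over cells, and 7 and 5 without 8-cell control run 1. In mimic embryos, 8 of 16 members were higher (Cd81, Trappc9, Mest, Gab1, Zrsr1, Grb10, Inpp5f and Commd1) and 1, Igf2r, was lower, beside 29.1% and 18.8% of 7594 genes. The median log2 change, of pooled CPM + 1, was 0.60 over the members and 0.20 over all genes in control embryos, and 0.94 and 0.20 in mimic embryos. Igf2r was 3.17-fold lower at the 32-cell stage in control and 2.15-fold lower in mimic embryos. By the mean of log2(CPM + 1) over cells, its change in mimic embryos was -0.98, under 2-fold, and 10 members were then higher and 0 lower. Without the 3 cells of 8-cell mimic embryos under 5000 genes, a setting chosen after seeing the data, 9 members were higher, the added 1 being Mcts2, and Igf2r alone was lower, with a log2 change of -1.21. Several of these values rested on 1 run. Without 32-cell control run 1, Copg2 and Impact had log2 changes of 0.59 and 0.57 between stages of control embryos, under 2-fold, and Usp29 one of -4.55. Without 32-cell mimic run 1, Grb10 had a log2 change of 0.51 and Mest one of 1.53 between stages of mimic embryos, and without mimic run 3 Commd1 had one of 0.99. Leaving out 8-cell control run 1 keeps only 2 control cells of that stage, and the log2 changes of Mest, Copg2, Commd1, Trappc9, Gab1, Usp29, Sfmbt2 and Impact were then 5.72, 4.57, 6.38, 5.35, 7.26, -4.68, 1.16 and 0.99.

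Of the 8 paternally expressed canonical genes at 20 CPM, Mest, Impact and Peg3 were past 2-fold higher at the 32-cell stage in control embryos, beside 30% of all genes. The median log2 change of these 8 was 0.05, beside 0.20 over all genes. Mest, a hydrolase of the mesoderm and the placenta, was at 2.23 CPM [1.78, 2.77] in 8-cell and 51.7 [49.8, 53.6] in 32-cell control cells, a log2 change of 4.03. In mimic cells it was at 6.15 [5.30, 7.09] and 33.02 [31.5, 34.6], a log2 change of 2.25. The lowest cell of Mest was at 0 in every group, the medians were 0, 0, 10.2 and 0 CPM, and the highest cells were at 30.9, 74.9, 239 and 415. Impact, a regulator of protein synthesis under stress, was at 118.3 CPM [114.8, 122] and 271 [267, 276] in control and at 153.9 [149.6, 158.3] and 253 [249, 257] in mimic cells. Its lowest cell was at 0 in every group, its medians were 80.7, 171.1, 236 and 233 CPM, and its highest cells were at 503, 262, 867 and 719 in 8-cell control, 8-cell mimic, 32-cell control and 32-cell mimic embryos. The log2 change of Impact was 1.19 in control and 0.71 in mimic embryos, and the difference between these was not tested. In the Peg3 domain the zinc finger gene Peg3 was 2.63-fold higher at the 32-cell stage of control embryos, with counts in 4 cells at the 8-cell stage. Its log2 change of 1.296 turned to -1.15 without 8-cell control run 1, was 1.96 without run 2 and was 0.81 as a mean of log2 values over cells. The protease gene Usp29, which lies beside it on the other strand, was 24.6-fold lower, with counts in 10 cells of 8-cell and 2 cells of 32-cell control embryos, 1 of which gave 96.2% of the latter counts. Usp29 was at 22.5 CPM [20.95, 24.04] and 13.4 [12.1, 14.7] in 8-cell control and mimic cells and at 0.914 [0.683, 1.20] and 3.85 [3.34, 4.41] at the 32-cell stage, with medians of 0 throughout and highest cells at 134.1, 101.8, 18.1 and 76.97 CPM.

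Among genes that are biased in some tissues only, Commd1, a copper and NF-kappa-B regulator, was at 21.9 CPM [20.4, 23.5] and 33.3 [31.3, 35.4] in 8-cell control and mimic cells and at 82.2 [79.9, 84.6] and 75.1 [72.7, 77.4] at the 32-cell stage. Its lowest cell was at 0 in every group, its medians were 18.7, 27.2, 68.7 and 66.9 CPM, and its highest cells were at 71.8, 142, 207 and 237. Trappc9, a subunit of a vesicle tethering complex, was at 9.20 [8.25, 10.2] and 1.94 [1.48, 2.499] CPM at the 8-cell stage and at 39.9 [38.2, 41.5] and 25.6 [24.2, 26.96] at the 32-cell stage. The lowest cell of Trappc9 was at 0 in every group, the medians were 0, 0, 13.6 and 0.651 CPM, and the highest cells were at 98.5, 19.8, 277 and 148.3. Gnas, the stimulatory G protein, was at 49.8 [47.5, 52.1], 62.1 [59.3, 64.9], 27.9 [26.6, 29.3] and 56.4 [54.4, 58.4] CPM in the same order. For Gnas the lowest cell was at 0 in every group, the medians were 39.7, 46.7, 24.2 and 43.3 CPM, and the highest cells were at 135.6, 235, 98.9 and 366.

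Among the non-canonical genes, Gab1, an adaptor of receptor tyrosine kinases, was at 65.3 CPM [62.7, 67.9997] and 36.2 [34.1, 38.4] in 8-cell control and mimic cells and at 152.5 [149.3, 155.7] and 161.8 [158.4, 165.3] at the 32-cell stage. It was past 2-fold between stages in both treatments. Its lowest cell was at 0 in every group, its medians were 8.22, 0, 169.6 and 137.1 CPM, and its highest cells were at 301, 218, 510.4 and 507. Jade1, a subunit of a histone acetyltransferase complex, stayed within 160.2 to 188 CPM in the 4 groups, with medians of 141.3, 67.8, 174.5 and 156.8 CPM. The lowest cell of Jade1 was at 0 at the 8-cell stage and at 14.4 and 17.3 CPM in 32-cell control and mimic embryos, and the highest cells were at 400.5, 820.1, 402.5 and 462. The plot of single cells shows these stage patterns beside Snrpn.

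**Figure D2:**
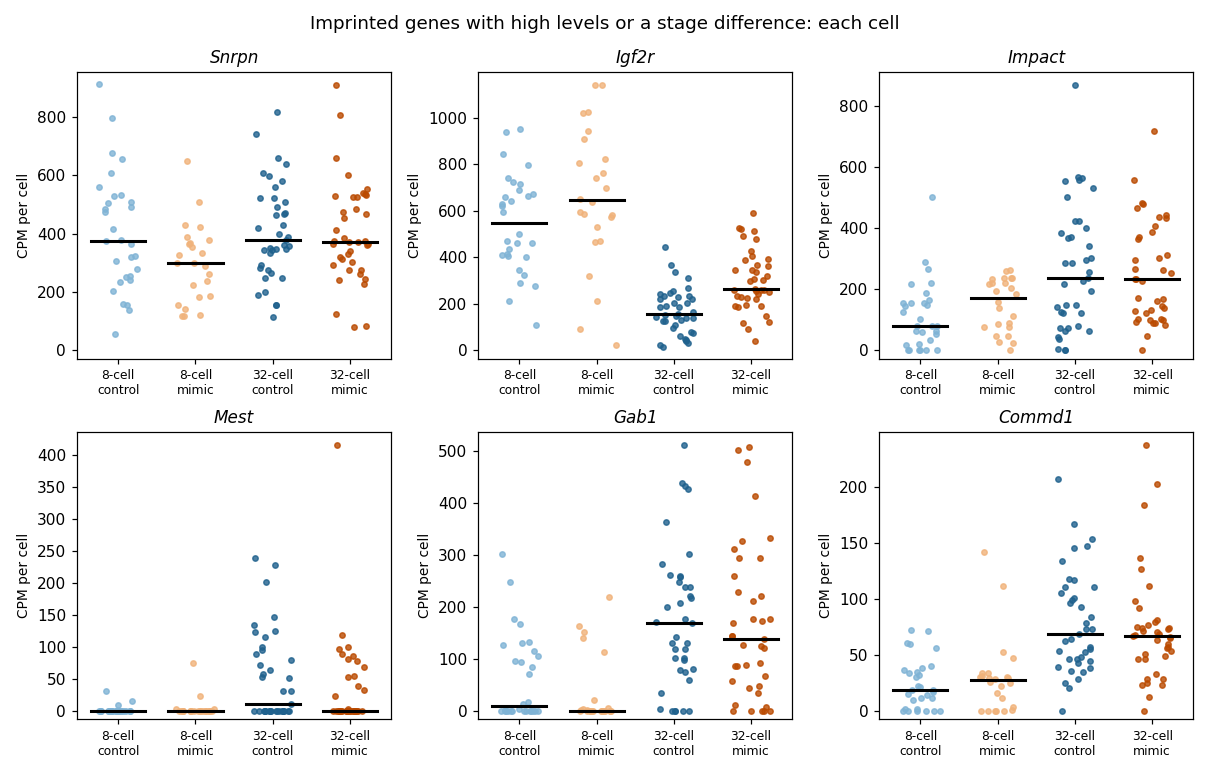
CPM of each cell (vertical axis) for Snrpn, Igf2r, Impact, Mest, Gab1 and Commd1 in the 4 groups; points are cells and black lines medians. The Igf2r medians are 547 and 645 CPM at the 8-cell stage and 156.1 and 265 at the 32-cell stage, and the Gab1 medians 8.22 and 0, and then 169.6 and 137.1.

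Mimic and control embryos were next compared within a stage, which asks whether the miR-381-3p mimic goes with other levels of these genes. At the 8-cell stage, 0 of the 13 members at 20 CPM or more were past 2-fold in either direction, beside 6.96% (higher) and 6.09% (lower) of 6570 genes. Their median log2 change was -0.13, beside 0.03 over all genes. Without the 3 mimic cells under 5000 genes, the count was also 0. Inpp5f, an inositol phosphatase and the member with the 8-base seed match shown above, was at 23.8 CPM [22.2, 25.4] in control and 12.7 [11.5, 14.001] in mimic cells, a log2 change of -0.86. Gab1 had a log2 change of -0.84. Below 20 CPM, Trappc9 had a log2 change of -1.79 and Sfmbt2 one of -3.75. With no filter, 9 members were past 2-fold, 5 higher and 4 lower in mimic cells. The 5 were Kcnq1, Zdbf2, Cd81, Mest and Peg12, at 1.23 to 6.15 CPM in mimic cells and each counted in 1 to 4 of them. The 4 were Trappc9, Sfmbt2, Ndn and Plagl1. Plagl1 also held a seed match and had a log2 change of -2.03, with its control counts from 1 cell. In 32-cell embryos the 3 genes with a match and a level over 20 CPM had log2 changes of 0.43 (Inpp5f), -0.62 (Trappc9) and 0.08 (Gab1). None of these values was past 2-fold at 20 CPM or more, and differences between the stages were not tested. Inpp5f was then at 26.2 [24.9, 27.6] and 35.6 [33.99, 37.2] CPM, with a lowest cell at 0 in every group, medians of 6.81, 0.436, 17.99 and 8.27 CPM and highest cells at 113.1, 91.7, 116.7 and 125.1.

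At the 32-cell stage, 6 of the 19 members at 20 CPM or more were past 2-fold. Cd81, Zrsr1 and Grb10 were higher and Sfmbt2, Peg3 and Copg2 lower in mimic than in control cells, beside 6.87% (higher) and 5.36% (lower) of all 7307 genes. The median log2 change was -0.10 over the members and 0.01 over all genes. By list, 1 of 8 paternally expressed canonical genes was higher and 1 was lower, 2 of 3 maternally expressed genes were higher, and 1 of 3 non-canonical genes and 1 of 5 genes biased in some tissues were lower. The plot of log2 changes sets both stages side by side.

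**Figure D3:**
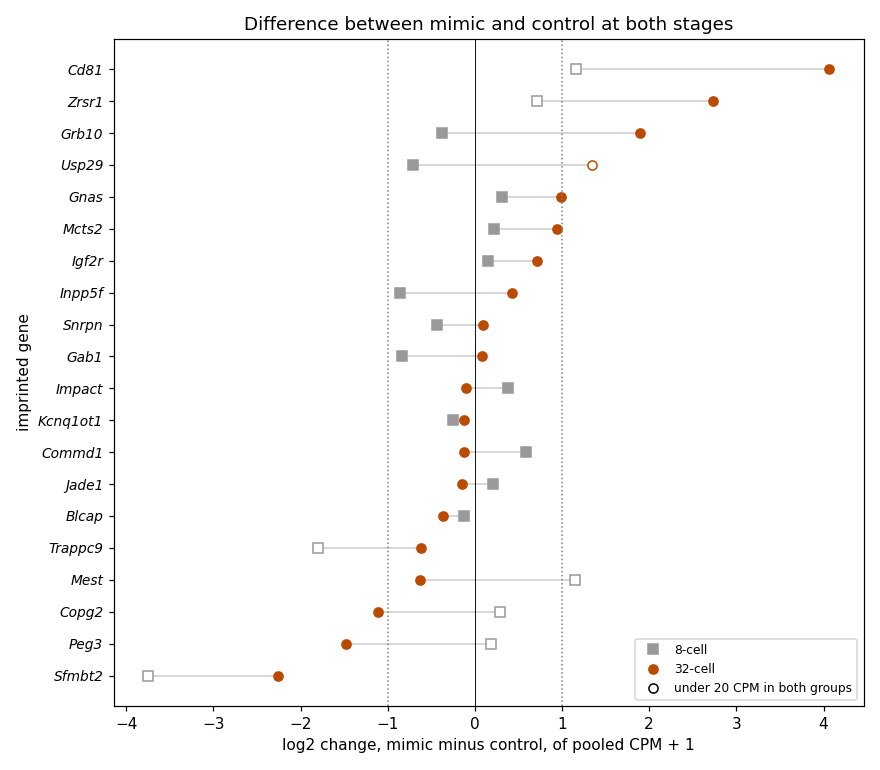
Log2 change between mimic and control, of pooled CPM + 1 (horizontal axis), for the 20 imprinted genes at 20 CPM or more in some group, at the 8-cell (squares) and the 32-cell stage (circles); open symbols are under 20 CPM in both groups and dotted lines mark 2-fold. At the 32-cell stage Cd81 and Zrsr1 lie farthest to the right, at 4.07 and 2.73, and Sfmbt2 farthest to the left, at -2.26.

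Cd81, a tetraspanin of the cell surface that is expressed from the maternal copy in the placenta, had the largest difference. It had no count in 30 cells of 8-cell control embryos, which allows up to 0.0817 CPM, and was at 1.23 CPM [0.870, 1.69] in 8-cell mimic, 7.79 [7.08, 8.55] in 32-cell control and 146.3 [143.1, 149.6] in 32-cell mimic cells. It was counted in 5 of 39 control cells (12.8%, exact binomial 95% interval 4.30 to 27.4%) and in 30 of 39 mimic cells (76.9%, 60.7 to 88.9%) at the 32-cell stage. The lowest, median and highest cells stood at 0, 0 and 146.2 CPM in control and at 0, 69.7 and 829.6 in mimic embryos. The groups overlapped, and 2 control cells lay above the mimic median. The pooled level was 18.8-fold higher in mimic cells (17.1 to 20.7-fold by counting error). Each mimic run lay above each control run, at 182, 138 and 110 CPM beside 8.96 and 6.04. In 8-cell cells with Xist above Y-linked RNA, Cd81 had no count in either treatment.

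Zrsr1, a splicing factor gene that arose by retrotransposition into an intron of Commd1, was at 6.78 CPM [5.96, 7.67] and 11.8 [10.6, 13.0] in 8-cell control and mimic cells. At the 32-cell stage it was at 5.20 [4.63, 5.83] in control and 40.2 [38.6, 41.99] in mimic cells, a 7.74-fold difference. It was counted in 28.2% of control and 64.1% of mimic cells at this stage. The lowest cell was at 0 in every group, the medians were 0, 0.441, 0 and 14.7 CPM, and the highest cells were at 178.1, 104.4, 51.5 and 256. All 3 mimic runs, at 29.8, 41.5 and 52.2 CPM, lay above the 2 control runs at 3.61 and 7.57. Zrsr1 shares 9.17% of its exon bases with Commd1 on the other strand, and the library preparation does not mark strand. The part of Commd1 reads in the Zrsr1 level was not tested. Zrsr2, the X-linked gene from which Zrsr1 was copied, was also higher in 32-cell mimic than in control cells, at 66.04 beside 27.2 CPM. Of the distinct words of the Zrsr1 transcript, 8 of 4455 words of 30 bases and 0 of 4443 words of 50 bases occur in Zrsr2. Whether Zrsr2 reads bear on the Zrsr1 level was not tested.

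Mcts2, likewise a retrogene, within an intron of H13, and a copy of the X-linked Mcts1, was at 20.5 CPM [19.4, 21.7] in control and 40.4 [38.7, 42.2] in mimic cells at the 32-cell stage, just under 2-fold on the log2 scale used (0.95). The level of Mcts1 was 50.2 CPM in control and 103.4 in mimic cells of this stage, and it shares 0 of the 863 distinct 50-base words of Mcts2. At the 8-cell stage Mcts2 was at 21.1 [19.7, 22.7] and 24.7 [22.96, 26.5] CPM. Its lowest cell was at 0 in every group, its medians were 12.9, 16.2, 17.6 and 29.2 CPM, and its highest cells were at 142.02, 119.1, 64.2 and 195. Gnas lay just under the same limit with a log2 change of 0.99.

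Grb10, an adaptor that restrains growth through the insulin receptor and is maternally expressed in most tissues, was at 40.1 CPM [38.1, 42.2] and 30.7 [28.8, 32.8] in 8-cell control and mimic cells. At the 32-cell stage it was at 25.3 [24.02, 26.7] in control and 96.7 [94.1, 99.4] in mimic cells, 3.82-fold higher. The lowest cell was at 0 in every group, the medians were 28.4, 21.2, 0 and 53.0 CPM, and the highest cells were at 294, 111.3, 152.4 and 387. The mimic runs differed, at 182, 19.5 and 71.2 CPM, and the second of them lay between the control runs at 14.9 and 40.8. Without the first mimic run the log2 change was 0.78, which is under 2-fold, and without the first or the second control run it was 1.23 or 2.62.

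Sfmbt2, a Polycomb protein needed for the trophoblast and a non-canonical imprinted gene, was lower in mimic cells at both stages. At the 8-cell stage it was at 13.3 CPM [12.2, 14.5] in control cells and had 2 counts in all mimic cells, 0.0647 CPM [0.00784, 0.234]. These 2 counts lie under the limit of 3 counts, so the size of the difference is poorly set, with a ratio of 206-fold, a counting interval of 56.7 to 1704-fold and, with the added 1 CPM, a log2 change of -3.75. Both levels were under 20 CPM. It was counted in 14 of 30 control and 2 of 24 mimic cells, with medians of 0 in both groups and highest cells at 86.8 and 0.739 CPM. At the 32-cell stage it was at 76.8 [74.6, 79.2] in control and 15.3 [14.3, 16.4] in mimic cells, 5.03-fold lower (4.66 to 5.42-fold). The lowest, median and highest cells then stood at 0, 58.7 and 228 CPM in control and at 0, 6.08 and 92.8 in mimic embryos, and 4 of 39 mimic cells lay above the control median. The control runs were at 84.004 and 66.2 CPM and the mimic runs at 19.8, 5.65 and 19.9. Among 8-cell cells with Xist above Y-linked RNA it was at 14.3 CPM in control and 0.0507 in mimic cells, and among those with the reverse at 10.9 and 0.123, so the 8-cell difference was present within both kinds of cell, with 1 count in each kind of mimic cell. The 3' UTR of Sfmbt2 used here held no seed match.

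The 2 remaining genes rested on few cells. Peg3 was at 8.36 CPM [7.45, 9.35] and 9.67 [8.61, 10.8] in 8-cell control and mimic cells and at 21.97 [20.8, 23.2] and 7.21 [6.51, 7.97] at the 32-cell stage. Its median was 0 in every group, and its highest cells were at 102.1, 88.8, 152.5 and 151.03 CPM. Peg3 was counted in 11 control and 6 mimic cells at the 32-cell stage, and 1 control cell gave 37.5% of the control counts. The first mimic run stood at 18.4 CPM, near the control runs at 19.7 and 25.3, and the other two at 0.641 and 0. Without the first mimic run the log2 change was -4.11 in place of -1.48, and as a mean of the single cells' CPM it was -0.95, under 2-fold. Copg2, a coatomer subunit whose last exon overlaps that of Mest on the other strand, was at 8.38 [7.47, 9.37] and 10.48 [9.37, 11.7] CPM in 8-cell control and mimic cells and at 22.7 [21.5, 23.98] and 10.0 [9.18, 10.9] at the 32-cell stage. It was counted in 14 cells of each treatment, its median was 0 in every group, and its highest cells were at 138.9, 167.6, 223 and 125 CPM. The control runs stood at 29.1 and 13.2 CPM and the mimic runs at 16.3, 11.2 and 0.631, so that they overlapped. The log2 change of Copg2 was -1.11, and -0.36 without the first control run, -1.73 without the first mimic run or -0.66 without the third mimic run. Mest and Copg2 share 23.1% of the exon bases of Mest, and reads there cannot be assigned to a strand. The 2 difference plots by cell and by run show how unevenly these genes were spread.

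**Figure D4:**
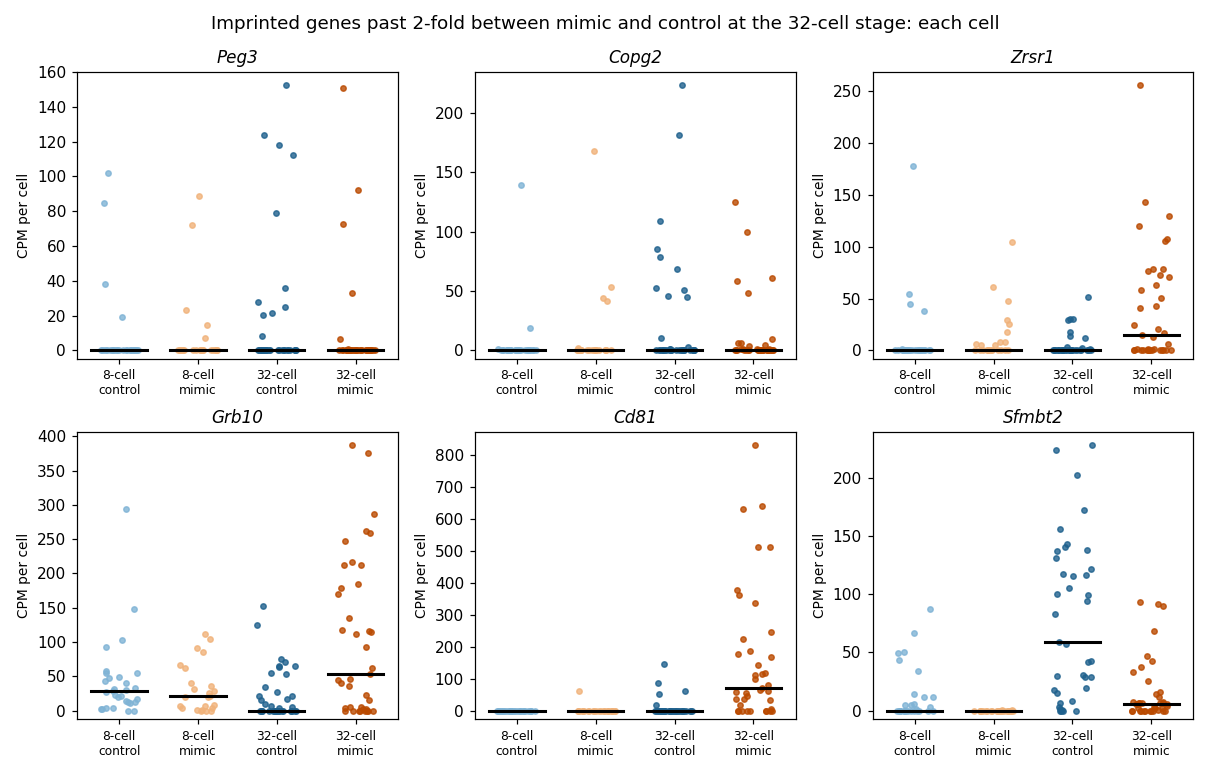
CPM of each cell (vertical axis) in the 4 groups for the 6 imprinted genes past 2-fold between mimic and control at the 32-cell stage; points are cells and black lines medians. Cd81 cells of 32-cell mimic embryos reach 829.6 CPM around a median of 69.7, and Peg3 and Copg2 have medians of 0 in every group.

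**Figure D5:**
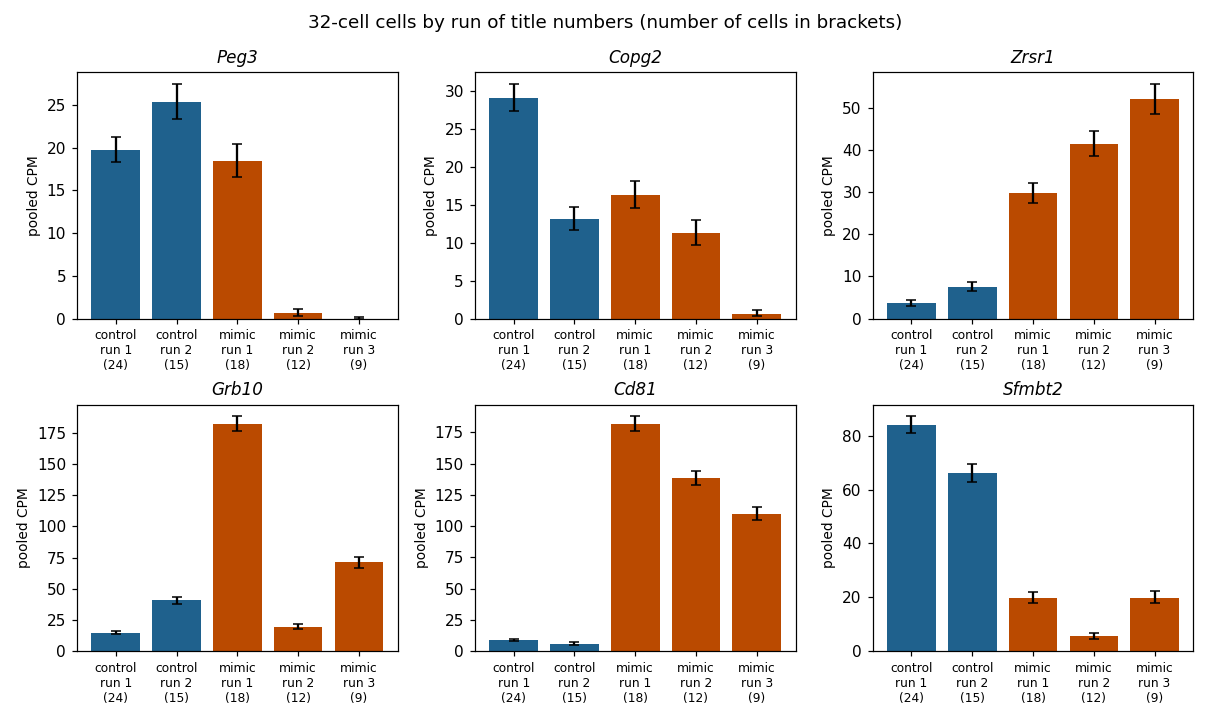
Pooled CPM (vertical axis) of the same 6 genes in 32-cell cells by run of title numbers, with exact Poisson 95% intervals as bars and the number of cells in brackets; blue is control and orange is mimic. For Cd81, Zrsr1 and Sfmbt2 no mimic run falls within the range of the control runs, whereas for Grb10 the second mimic run, at 19.5 CPM, does.

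Of the genes under 20 CPM in every group, Zdbf2 was at 0.191, 2.69, 7.65 and 16.8 CPM in 8-cell control, 8-cell mimic, 32-cell control and 32-cell mimic cells. Plagl1, a zinc finger gene and growth regulator, was at 3.08 and 7.28 CPM in 8-cell and 32-cell control cells and had 0 and 1 counts in mimic cells. These control counts came from 1 cell at the 8-cell and 2 cells at the 32-cell stage.

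Cells of 32-cell embryos were split into inner cell mass (ICM)-like and trophectoderm (TE)-like cells by clustering without the imprinted genes and without the markers. The classes were named by 9 ICM and 9 TE markers, which therefore do not support the names on their own, and Fgf4 and Gata6 stood at near equal levels in both classes (11.9 and 11.3 CPM, and 128.9 and 125.3 CPM). Control embryos held 25 ICM-like and 14 TE-like cells, and mimic embryos 10 and 29, but mimic embryos held 2 ICM-like cells with 15 in place of 25 principal components and 17 with classes by marker score. In control embryos, Trappc9 and Gab1 were past 2-fold higher and Peg3 and Copg2 past 2-fold lower in ICM-like cells, 4 of 17 members, beside 11.9% (higher) and 10.1% (lower) of all genes. Trappc9 was at 61.0 CPM [58.3, 63.7] in ICM-like and 11.6 [10.3, 13.0] in TE-like control cells, and Gab1 at 197 [192, 202] and 93.2 [89.4, 97.2]. As a mean of the single cells' CPM, the log2 change of Gab1 was 0.94, under 2-fold. Peg3 was at 7.22 [6.32, 8.20] and 41.7 [39.2, 44.4], from 5 and 6 cells, and Copg2 at 11.0 [9.86, 12.2] and 38.4 [35.996, 40.96]. In mimic embryos Mest, Copg2 and Zdbf2 were higher in ICM-like cells, 3 of 18 members with 0 lower, beside 9.34% and 9.12% of all genes. Copg2 was thus at 22.9 [20.2, 25.8] and 6.41 [5.67, 7.23] CPM in mimic cells, and 1 cell gave 50.8% of the counts in ICM-like mimic and 1 cell 49.0% of those in TE-like control cells. For Mest 1 cell gave 56.6% of the counts in ICM-like mimic cells. These mimic values depended on the classes: with 15 principal components the log2 changes were -1.65 for Copg2 and -5.14 for Mest, and with classes by marker score Copg2 and Zdbf2 were under 2-fold, at 0.39 and 0.81. The differences between mimic and control were present in both classes for Cd81, Zrsr1, Grb10 and Sfmbt2. Cd81 was at 10.2 and 4.56 CPM in ICM-like and TE-like control cells and at 111.6 and 155.96 in mimic cells. Zrsr1 was at 4.76 and 5.79 beside 37.7 and 41.0, Grb10 at 28.8 and 20.7 beside 71.9 and 103.6, and Sfmbt2 at 97.3 and 49.4 beside 17.8 and 14.6.

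A list of 20 genes that keep, erase or read the imprints was set beside the members. At the 8-cell stage 18 of them passed 20 CPM, of which Setdb1, an H3K9 methyltransferase, was 2.61-fold higher and Zfp57, the zinc finger protein that binds methylated imprinting control regions, 2.32-fold lower in mimic cells, beside 6.96% (higher) and 6.09% (lower) of all genes. In 32-cell embryos 6 of 20 were past 2-fold lower and 0 higher, beside 5.36% and 6.87% of all genes. Zfp57 was at 154.3 CPM in control and 65.2 in mimic cells, and Setdb1 at 83.8 and 40.2. Uhrf1 and Dnmt1, which copy methylation to the new strand after replication, were at 263 and 83.5 and at 72.3 and 35.6 CPM. The chromatin remodeller Hells was at 193 and 85.6, and Tet3, which oxidises methylated cytosine, at 21.3 and 5.92. Dnmt1 lay at the limit, with a log2 change of -1.002. Since 25 control and 10 mimic cells were ICM-like, the 6 genes were also set side by side within classes. In control embryos, ICM-like cells held Zfp57 at 234 CPM and TE-like cells at 47.7, and in mimic embryos they held it at 61.1 and 66.3. Its pooled level was thus lower in mimic cells of the first class and higher in those of the second. The TE-like control level of Zfp57 came from 14 cells, 1 of which gave 45.0% of the counts. The other 5 had lower pooled levels in mimic cells of both classes. Uhrf1, for example, was at 318 and 190.2 CPM in ICM-like and 188.6 and 53.8 in TE-like control and mimic cells. Some of these levels rested on few cells. In ICM-like mimic cells Tet3 was counted in 1 of 10 cells, and 1 cell gave 62.7% of the Setdb1 counts. In ICM-like control cells 1 cell gave 54.9% of the Tet3 counts. These classes used 25 principal components, and the ICM-like mimic cells numbered 2 with 15 components and 17 by marker score. Between the stages, Uhrf1 was 20.3-fold and Zfp57 2.44-fold higher at the 32-cell stage of control embryos, and Trim28, Dppa3, Ezh2 and Smchd1 were 2.23 to 2.504-fold lower. These were 2 and 4 of 20 genes, beside 30% and 20.1% of all genes. In mimic embryos Zfp57 and Uhrf1 were past 2-fold higher, and Trim28, Setdb1, Ezh2, Suz12 and Ehmt2 lower, of 19 genes at 20 CPM, beside 29.1% and 18.8% of all genes. Between ICM-like and TE-like cells, Zfp57 was higher and Dnmt3l lower in control embryos, 1 and 1 of 20 genes, beside 11.9% and 10.1% of all genes, and 2 of 19 were higher and 2 lower in mimic embryos, beside 9.34% and 9.12%.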

How the data were processed

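The authors aligned Smart-seq2 reads to mm10 with STAR (version 2.5.1b) and quantified them with RSEM (version 1.3.0), and deposited RSEM expected counts without normalisation, all of them whole numbers. The study's filter (at least 3000 genes and under 10% mitochondrial counts) removed 0 of 132 cells, and 0 columns of cells were left unused. Counts were summed over the cells of a group, without the 13 mitochondrial genes, and scaled to CPM. Groups were compared by subtracting log2(pooled CPM + 1) for all genes that reached 20 CPM in 1 of them, and a change of 1 or more in size was called. With 1 sample per group no test was run. Clustering used Seurat (version 5.3.0, under R version 4.3.3) on 2000 variable genes and 25 principal components at resolution 0.6, and the 32-cell cluster with the higher marker score was called ICM-like. No doublet caller was run. Gene models, exon lengths and 3' UTRs came from GENCODE M21, which may differ from the release used for counting. Scripts were tested on simulated data. Members and lists were chosen with earlier results of these data known. All members were accounted for, with values per cell for those at 20 CPM or more in some group, and Phf17 and Nespas were left out. Alternatives were TMM (edgeR, version 4.0.16), median-of-ratios scaling (DESeq2, version 1.42.0), other filters, pseudocounts, averages, depths, runs and classes.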

Additional observations from a re-analysis of the deposited data

How the results depend on the processing

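No paired analysis was possible because the cells carry no embryo label and every group is 1 sample. The number of members past 2-fold between stages was 10 in control embryos, 16 with a 5 CPM filter and 19 with none, and 9 in mimic embryos, 15 and 18 with these filters, and 10 without the 3 8-cell mimic cells under 5000 genes, a setting chosen after seeing the data. Between mimic and control at the 8-cell stage it was 0, but 3 with a 5 CPM filter, 9 with none, 4 with the mean of log2(CPM + 1) over cells, 7 without control run 1, which leaves 2 cells, and 0 to 2 with each cell left out in turn. At the 32-cell stage it was 6, and 12 with no filter. Between classes it was 4 in control embryos and 7 with a 5 CPM filter, and 3 in mimic embryos, 5 with a 5 CPM filter, 1 with classes by marker score and 7 with 15 principal components. With 15 principal components Mest and Copg2 turned to log2 changes of -5.14 and -1.65 between classes of mimic embryos, and without 8-cell control run 1 Peg3 turned to -1.15 between stages. Cd81, Zrsr1 and Sfmbt2 stayed past 2-fold between 32-cell mimic and control cells in each of 15 settings (log2 changes of 3.56 to 4.59, 2.15 to 3.16 and -2.53 to -1.90), Grb10 in 14, Peg3 in 12 and Copg2 in 11. Leaving out single cells gave Peg3 -1.92 to -0.92 and Copg2 -1.45 to -0.56. TMM and median-of-ratios scaling moved the median of all genes by up to -0.20, and the mean of log2(CPM + 1) over cells by up to 0.26. Depth limits genes with few counts.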
